A study of Homo sapiens with 4 samples.

Results

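Cells of the established human line MDA-MB-231, grown from a triple-negative breast cancer, were sorted for the strongest retention of 1 of 2 dyes, Claret or Violet, and the RNA of the 2 sorted populations was sequenced and compared gene by gene. Genes with a mean of at least 5 CPM (read counts scaled to a common library size) over the Claret and Violet libraries were kept, which left 11493 of the 58735 genes counted, 10837 of them protein coding. The genes nearest to that limit were TMEM229B (91 reads in Claret and 72 in Violet) and ZNF35 (90 and 73) on the inside, and ALG11 (92 and 71) and UCKL1-AS1 (82 and 80) on the outside. All cells, including those of the Bulk control, carried a doxycycline-inducible H2B-eGFP reporter by transduction and received doxycycline at 5 μg/ml for 3 days, then both dyes, then a chase of 12 days. Claret, Violet and H2B-eGFP each gave a sort of the top 1% of cells by that label, while the Bulk sort used no gate on fluorescence. Each of the 4 groups has 1 library, so every difference compares 2 libraries, carries counting error only and has no replicate check. The libraries are called by their titles. The treatment field contradicts the titles in all 4 samples. It gives the library titled Claret as the H2B-eGFP sort and the library titled Violet as the un-gated sort. By that field, the comparison made here would be of H2B-eGFP-sorted with un-gated cells. The same field gives the library titled Bulk as the Claret sort and the library titled H2B-eGFP as the Violet sort, and values under those names are given at the end.

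Dyes of this kind and an induced histone label are inherited by daughter cells and shared out at each division, so cells that divide rarely stay bright. Some such dyes react with cell protein and others insert into membranes, while the histone label sits in chromatin. The title of the study speaks of AP-1, whose subunits are FOS and JUN proteins, and of dormancy, a state in which tumour cells stay alive without dividing.

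The Claret library held 16976909 counted reads and the Violet library 15508179, and the floor that a count of 0 allows (3 reads) lay at 0.177 CPM in Claret and 0.191 CPM in Violet. Wherever 4 read counts follow a gene without library names, their order is Bulk, Claret, eGFP, Violet, and libraries are called high or low by their TMM-scaled CPM. Of the markers listed for this line as a mesenchymal, basal B type, 13 of 13 were at or above 5 CPM in the mean of both libraries, with a summed level of 5661.7 CPM in Claret and 5294.5 CPM in Violet. The 7 leukocyte markers summed to 1.77 and 1.84 CPM, and CD3E and MS4A1 had no read in either library. The 4 endothelial markers summed to 6.65 and 8.07 CPM, mostly PECAM1. The 7 fibroblast markers summed to 46.8 and 48.6 CPM, carried by PDGFRB and COL1A1, while COL1A2 and LUM had no read. The 10 luminal markers summed to 711.4 and 647.9 CPM, mostly KRT19, CLDN4 and ERBB2, with PGR at 0 and ESR1 at 3 reads in each library. In bulk RNA such as this, fewer cells of a type and less RNA per cell cannot be told apart.

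The Claret and Violet libraries were close to each other over most genes. The log2 ratio of Claret to Violet had a median of 0.01 and a standard deviation of 0.197 over the 11493 genes. It lay within 0.25 of 0 for 85.5% of genes and within 0.5 for 98.3%, and log2 CPM in Claret and Violet had a Pearson correlation of 0.993 across genes, which are not independent replicates. A gene was taken as past the fold when it differed by at least 1.5-fold and the 95% exact interval of its read ratio lay wholly on that side of equality. By this rule 36 genes (0.313%) were higher and 70 (0.609%) lower in Claret, 106 in all (0.922%). At 2-fold there were 4 higher (0.0348%) and 11 lower (0.0957%). With DESeq2 size factors in place of TMM the split was 49 higher and 61 lower, and with library totals alone 29 higher and 81 lower. The spread exceeded that of read sampling at every level of expression. It was 0.325 against 0.193 from counting for genes under 10 CPM and 0.183 against 0.0174 for the 229 genes of at least 500 CPM.

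**Figure D1:**
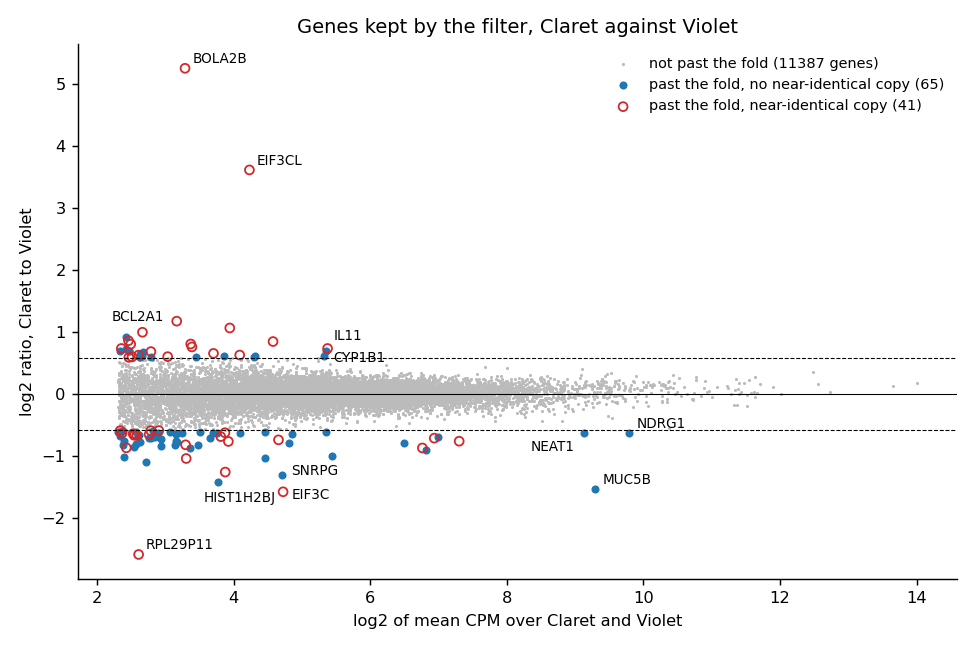
Log2 ratio of Claret to Violet (y axis) against log2 of the mean CPM over both libraries (x axis), 1 point per gene. Grey points are not past the fold, and dashed lines mark 1.5-fold. Red circles are the 41 genes past it with at least 25% of their 31-base words in other genes. Blue points are the 65 genes past it under that limit. The points farthest from 0 are red circles, with BOLA2B at 5.25 and RPL29P11 at -2.59. Among genes of at least 500 CPM, MUC5B at -1.54 lies farthest from 0. NDRG1 and NEAT1, both at -0.63, are also lower and past the fold there.

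Over all genes, the ratio of Claret to Violet moved with transcript length. The genes past the fold did not lie on opposite sides of the median length of all genes, 5252 bases. Their median was 3048.5 bases for those higher in Claret and 4482.5 for those lower. Without near-identical copies these medians were 4583 and 4948 bases, also below that of all genes. The log2 ratio fell with annotated gene length, with a Spearman correlation of -0.34 across the 11493 genes, -0.34 without near-identical copies and -0.48 over the 4541 genes of at least 50 CPM. In the 1150 shortest genes (median 1622 bases) the median log2 ratio was 0.10 and 71.0% lay above 0. In the 1150 longest (median 13261 bases) the median was -0.09 and 24.5% lay above 0, against 52.1% of all genes. Against eGFP, the Claret medians ran from 0.05 in the shortest to -0.03 in the longest genes, and the Violet medians from -0.06 to 0.07. Each dye library thus lay on its own side of eGFP at both ends. GC content had a weaker relation to the log2 ratio, with a Spearman correlation of 0.11. Because length moves with the comparison, the gene lists below are also given with the smooth trend on length subtracted. The part of length in other differences was not tested.

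**Figure D2:**
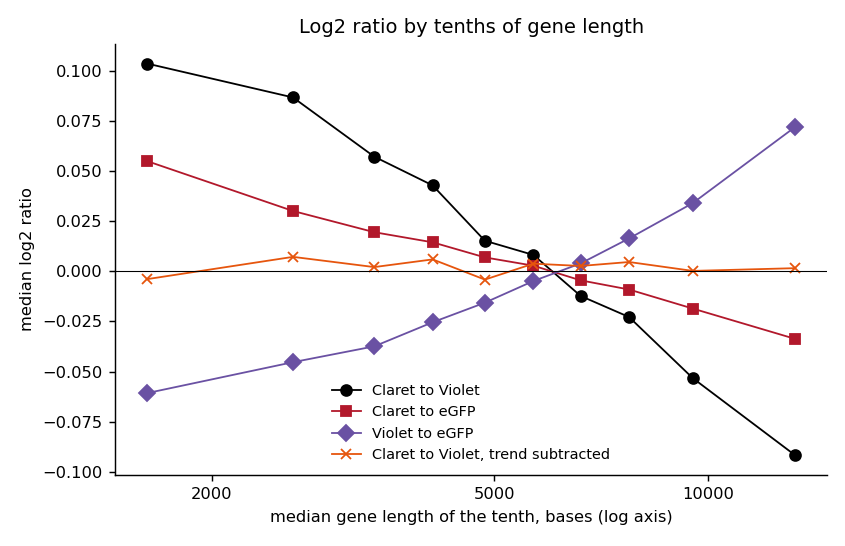
Median log2 ratio (y axis) in 10 groups of genes ordered by length (x axis, median length of the group in bases, log axis) for 3 pairs of libraries, and for Claret to Violet with the length trend subtracted. The Claret to Violet median passes from 0.10 to -0.09, Claret to eGFP and Violet to eGFP slope in opposite directions, and the corrected medians stay within 0.01 of 0.

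Among genes lower in Claret, the gel-forming mucins stood out. MUC5B (ENSG00000117983, GRCh38 chromosome 11, 1223066 to 1262172), a large secreted glycoprotein of mucus, had 5471 reads in Claret and 14741 in Violet, beside 5790 in Bulk and 5227 in eGFP. Violet was high and the other 3 libraries lay close together. The Claret to Violet log2 ratio was -1.54 (95% interval -1.58 to -1.49), a difference of 2.91-fold, and -1.42 with the length trend subtracted. MUC5AC, its neighbour on chromosome 11 (1157953 to 1201138) and likewise a gel-forming mucin, had 1648 reads in Claret and 2475 in Violet, beside 4077 in Bulk and 944 in eGFP, a log2 ratio of -0.70 (-0.79 to -0.61). Here Bulk was highest and eGFP lowest, so the order of the libraries differed from that of MUC5B. Of the 6 mucins kept, of 18 listed, these 2 were lower and past the fold, against 0.609% of all genes. Of the 6, 5 lay below 0, where 52.1% of all genes were above it. The list median was -0.07, also with the length trend subtracted.

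Other leading lower genes encode proteins of several kinds. CEMIP, which takes part in hyaluronan breakdown, had 508, 489, 486 and 913 reads, a log2 ratio of -1.01 (-1.17 to -0.85). IGFBP3, a carrier of insulin-like growth factors, had 1122, 1327, 1224 and 2301 reads, -0.90 (-1.002 to -0.81). SUSD2, a membrane protein, had 778, 1119, 938 and 1792 reads, -0.79 (-0.90 to -0.68). For all 3 genes Violet alone was high, as for MUC5B. CLDN3, a claudin of epithelial tight junctions, had 34, 58, 79 and 111 reads, -1.02 (-1.53 to -0.57), lowest in Bulk and highest in Violet. SCART1 had 22, 70, 65 and 141 reads, -1.10 (-1.55 to -0.70), and DEPP1 had 142, 347, 386 and 559 reads, -0.79 (-0.99 to -0.60). Both were likewise lowest in Bulk and highest in Violet, and DEPP1 overlaps RASSF4 on the other strand, itself at -0.63. Of the 48 lower genes without near-identical copies, eGFP lay nearer to Claret than to Violet in 37, between them in 36 and below both in 12. These genes were picked for their gap between Claret and Violet, which favours a place between the 2. The same counts over all genes were not taken.

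HIST1H2BJ (chromosome 6, 27125897 to 27132750), a gene for histone H2B, had 126 reads in Claret and 315 in Violet, beside 182 in Bulk and 248 in eGFP, a log2 ratio of -1.42 (-1.74 to -1.13). Claret was the lowest of the 4 libraries. The cells carry an H2B-eGFP reporter, the labels do not say which H2B gene it was built from, and reads of the reporter cannot be told apart from those of a genomic gene with the same sequence. The 4 kept members of the replication-dependent histone list had a median of -0.09 (-0.18 with the trend subtracted). The other 3 were not past the fold, and HIST1H2BK, another H2B gene, stood at 86 reads in Claret and 78 in Violet (0.03, -0.43 to 0.49). SNRPG (chromosome 2, 70281362 to 70293771), a core protein of spliceosomal ribonucleoproteins, had 256 reads in Claret and 589 in Violet, beside 1480 in Bulk and 428 in eGFP, -1.30 (-1.53 to -1.10). Claret was lowest and Bulk highest. SNRPGP10, a processed pseudogene of SNRPG below the CPM limit, ran the other way, with 11, 76, 31 and 13 reads. The splicing-factor list around SNRPG had 28 of 51 members above 0 and a median of 0.01 (-0.00 with the trend subtracted).

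**Figure D3:**
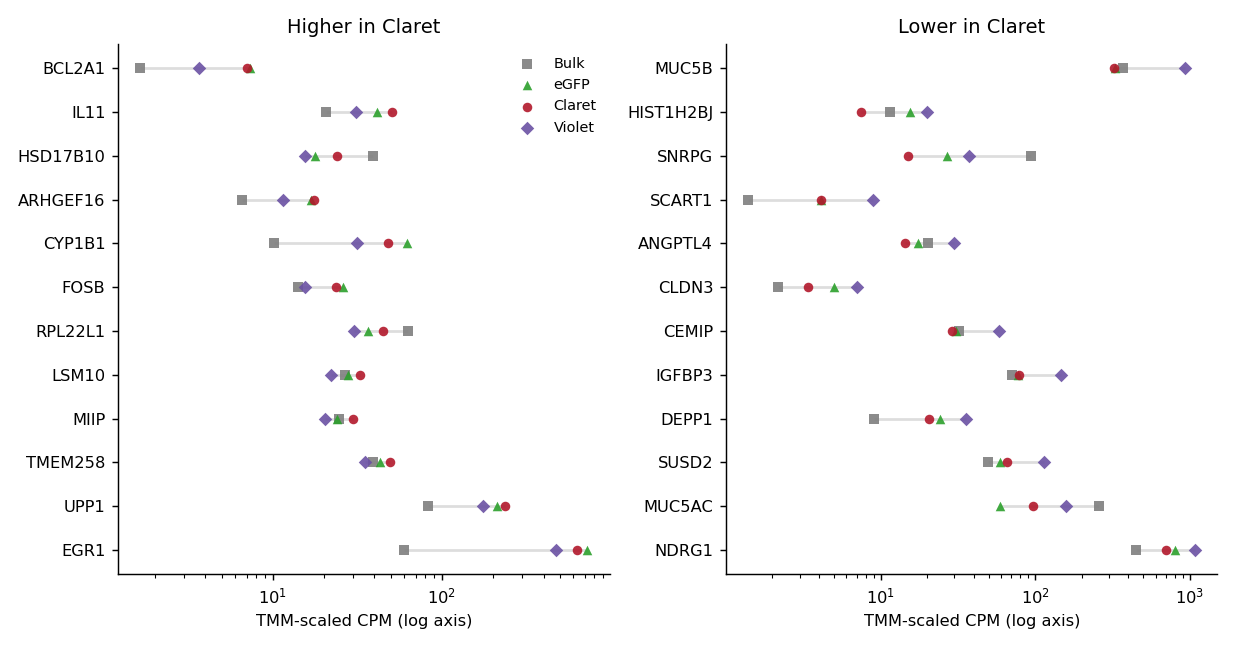
TMM-scaled CPM (x axis, log axis) in the Bulk, eGFP, Claret and Violet libraries for the 12 protein-coding genes higher (left) and the 12 lower (right) in Claret whose interval lies farthest from equality, copies left out. Each symbol is 1 library and the grey bar spans the 4. Violet sits at the right end for 10 of the 12 genes in the right panel, and Bulk does for SNRPG and MUC5AC.

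IL11 led the genes higher in Claret. It encodes interleukin-11, a secreted cytokine of the interleukin-6 family, and lies on chromosome 19 (55364389 to 55370463). It had 861 reads in Claret and 491 in Violet, beside 327 in Bulk and 661 in eGFP, a log2 ratio of 0.70 (0.54 to 0.86), or 1.62-fold, and 0.62 with the length trend subtracted. Claret was highest and Bulk lowest. BCL2A1, an anti-apoptotic BCL2 relative, had 26, 120, 117 and 58 reads, 0.92 (0.48 to 1.42). CYP1B1, a cytochrome P450 enzyme, had 161, 821, 996 and 499 reads, 0.61 (0.45 to 0.77). For BCL2A1 and CYP1B1 the eGFP library stood with Claret, and Violet lay between them and Bulk. HSD17B10, a mitochondrial dehydrogenase, had 617, 407, 281 and 246 reads, 0.61 (0.39 to 0.85), and ARHGEF16 had 104, 299, 269 and 181 reads, 0.61 (0.34 to 0.89). HSD17B10 was highest in Bulk, and ARHGEF16 lowest there. RPL22L1, LSM10, MIIP, TMEM258, EGR1 and UPP1 had intervals above 0 without reaching the fold. EGR1, an immediate-early transcription factor, had 947, 10649, 11526 and 7478 reads (0.40, 0.36 to 0.44), and UPP1, uridine phosphorylase, had 1299, 4004, 3386 and 2756 (0.43, 0.36 to 0.50). All 17 higher genes without near-identical copies were protein coding, and eGFP lay nearer to Claret than to Violet in 10 of them. They too were picked for their gap, and no such count over all genes was taken.

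Because the study's title names AP-1, the FOS and JUN genes were listed in full. Of the 7, 6 lay above 0, against 52.1% of all genes. Past the fold and higher was 1 of the 7, against 0.313% of all genes. It was FOSB (222, 400, 415 and 246 reads), at 0.59 (0.36 to 0.83). FOS, with 653, 994, 1052 and 716 reads, had a log2 ratio of 0.36 (0.22 to 0.50). JUNB was at 0.23 (0.16 to 0.31), FOSL1 at 0.22 (0.16 to 0.27), JUND at 0.18 (0.09 to 0.26) and JUN at 0.00 (-0.05 to 0.05). FOSL2, with 6155, 3429, 3029 and 3520 reads, stood at -0.15 (-0.22 to -0.08). Fos-family members thus lay on both sides, with FOSB and FOS toward Claret and FOSL2 toward Violet. The list median was 0.22, the highest of the 45 lists. With the length trend subtracted it was 0.11 with 5 of 7 above 0, below the tRNA synthetases (0.15) and the cytosolic ribosomal proteins (0.12). In FOSB, FOS and JUNB the eGFP library was at least as high in reads as Claret, so Violet was the low one of the 3 sorted libraries. The wider immediate-early list had 22 of 34 members above 0, a median of 0.06 (0.04 with the trend subtracted) and no member past the fold.

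The AP-1 binding motif, TGANTCA, was searched on both strands in RefSeq promoters (GRCh38.p14, 250 bases before to 50 after the annotated start). It occurred in 7.76% of all 27305 promoters and in 4.49% of the 8916 kept genes with a promoter. Of the genes past the fold without copies, 1 of 12 higher genes with a promoter held it, IL11, and 2 of 32 lower genes, ZNF460 and CAPN8. The stretch of the IL11 promoter is shown because it is the gene at the head of the higher side, with the motif in capitals (chr19:55370515-55370604, minus strand, motif starting 96 bases before the start site).
IL11 promoter: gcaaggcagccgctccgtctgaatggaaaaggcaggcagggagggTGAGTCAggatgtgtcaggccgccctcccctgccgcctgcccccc
A match of letters is not a binding site. The related element TGACGTCA was in 3.45% of the kept genes' promoters and in none of those 12 and 32 promoters.

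Genes of glycolysis and the low-oxygen response lay lower in Claret, with and without the length trend. Of 42 members 35 were below 0, with a median of -0.13 (-0.12 with the trend subtracted, 31 of 42 below 0), and 25 had an interval wholly below 0, against 15% of all genes. Past the fold and lower were 3 of the 42, against 0.609% of all genes, and none was higher, against 0.313%. NDRG1, a stress- and hypoxia-responsive protein, had 11817 reads in Claret and 17010 in Violet, beside 7020 in Bulk and 12746 in eGFP, a log2 ratio of -0.63 (-0.67 to -0.60). ANGPTL4, a secreted inhibitor of lipoprotein lipase, had 319, 245, 278 and 467 reads, -1.03 (-1.27 to -0.81). CA9, a cell-surface carbonic anhydrase, had 159, 120, 192 and 198 reads, -0.82 (-1.17 to -0.50), but shares sequence with the overlapping gene ARHGEF39, and their summed reads gave -0.50. In all 3 genes Violet was the highest of the 4 libraries. EGLN3, an oxygen-sensing prolyl hydroxylase, was at -0.51 (-0.74 to -0.28), ADM, the vasodilator peptide adrenomedullin, at -0.46 (-0.68 to -0.25), and HK2, a hexokinase, at -0.29 (-0.39 to -0.19).

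Among abundant glycolytic enzymes, LDHA and PGK1 lay near the list median of -0.13, and PKM, GAPDH and ENO1 lay near 0. LDHA was at -0.13 (-0.17 to -0.10), PGK1 at -0.16 (-0.19 to -0.12), PKM at -0.04 (-0.06 to -0.02), GAPDH at -0.01 (-0.03 to 0.01) and ENO1 at 0.04 (0.02 to 0.06). At the other end of the list stood SLC16A1, the monocarboxylate transporter MCT1, with 372 reads in Claret and 238 in Violet, beside 0 in Bulk and 331 in eGFP, a Claret to Violet log2 ratio of 0.53 (0.30 to 0.78). Bulk stood apart from the 3 sorted libraries (its floor of 3 reads is 0.19 CPM), and Violet was the lowest of them. The core letters of the hypoxia response element, ACGTG, were in 27.4% of the kept genes' promoters, in 15 of 36 promoters of this list (41.7%), in 3 of 12 promoters of the higher genes (25%) and in 9 of 32 of the lower genes (28.1%), both strands searched.

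Extracellular matrix genes also lay lower in Claret. Of 38 kept, 31 were below 0, where 52.1% of all genes were above it, the median was -0.13, and 22 had an interval wholly below 0, against 15% of all genes. These genes are long (median 9213.5 bases), and with the length trend subtracted the median was -0.08 with 28 of 38 below 0. FN1, fibronectin, had 18300 reads in Claret and 24708 in Violet, beside 11680 in Bulk and 22204 in eGFP, a log2 ratio of -0.54 (-0.57 to -0.51), short of the fold. LOX, which cross-links collagen, had 950, 1979, 2360 and 2432 reads, -0.41 (-0.49 to -0.32), and LAMA4, a laminin chain, had 106, 215, 264 and 287 reads, -0.52 (-0.79 to -0.27). In these 3 genes Bulk was lowest, Violet highest, and eGFP lay nearer to Violet. TNC, tenascin C, ran the other way, with 2500, 6808, 6384 and 5429 reads, 0.22 (0.17 to 0.27). No matrix gene was past the fold. ADAMTS1, a secreted protease on the matrix protease list, was higher in Claret (112, 117, 85 and 66 reads, 0.70, 0.27 to 1.17), with 9 of 21 members of its list above 0 and a median of -0.02 (-0.00 with the trend subtracted). ITGB3, the integrin beta 3 chain, was lower (90, 89, 62 and 131 reads, -0.65, -1.07 to -0.27), with 10 of 29 integrin and focal adhesion genes above 0 and a median of -0.06 (-0.02). It shares its sequence in large part with the overlapping gene AC068234.1, which had no read.

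The machinery of translation lay higher in Claret, by small amounts in nearly every gene. Of the 79 cytosolic ribosomal protein genes kept, 79 were above 0, against 52.1% of all genes, and 76 had an interval wholly above 0, against 16.9%. Their median was 0.17, the range 0.05 to 0.33, and none was past the fold. Together they held 6.66% of reads in Claret and 5.98% in Violet. With the length trend subtracted the median was 0.12 and 75 of 79 lay above 0. RPL29 had the largest ratio, with 13915 reads in Claret and 10257 in Violet, beside 9102 in Bulk and 12631 in eGFP (0.33, 0.29 to 0.37). RPS6 had the smallest, with 8932, 12326, 12057 and 11048 reads (0.05, 0.01 to 0.09). RPLP0, with 37814, 51406, 45212 and 42254 reads, stood at 0.17 (0.16 to 0.19). In each of the 3 Bulk was lowest, and Claret was highest for RPL29 and RPLP0 and eGFP for RPS6. Summed with its near-identical copies, described below, RPL29 was at 0.16 (0.13 to 0.20). Of the 79 genes, 16 count as copies by the rule given below, and the median without them was 0.17. Against eGFP the list median was 0.02 in Claret and -0.14 in Violet. RPL22L1, a paralog of RPL22, was among the leading higher genes (991, 764, 581 and 475 reads, 0.57, 0.41 to 0.74), where RPL22 itself was at 0.11 (0.01 to 0.21).

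Ribosomal protein messages and other translation-factor messages often start with a C followed by a run of pyrimidines, through which the cell sets their translation with growth signals. Among RefSeq promoters, 42 of 63 ribosomal protein genes (66.7%) had a C and 4 further pyrimidines at exactly the annotated start, against 460 of the 8853 other kept genes (5.2%) and 4.04% of all promoters. The starts of RPL29 and RPS6, the genes at the ends of the ribosomal range, and of EEF1A1, the elongation factor, are shown with those 5 bases in capitals, 15 bases before and 10 after. They lie at chr3:51995881-51995910, chr9:19380222-19380251 and chr6:73521018-73521047, all on the minus strand.
RPL29: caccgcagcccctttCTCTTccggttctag
RPS6: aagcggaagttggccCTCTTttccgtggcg
EEF1A1: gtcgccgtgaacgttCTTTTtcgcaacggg
RPL29 and RPS6 had the same 5 letters and, counted alone, the largest and smallest ratio of their list. Summed with its copies, RPL29 was at 0.16, near the list median of 0.17. The 42 ribosomal genes with such a start had a median of 0.18 (0.12 with the trend subtracted) and the 21 without it 0.18 (0.11). Outside the list, genes with it had a median of 0.03 (0.02 with the trend subtracted) and genes without it 0.01 (0.00). EEF1A1 itself had 129160, 229204, 210205 and 194241 reads, and a log2 ratio of 0.13 (0.12 to 0.14).

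Other parts of protein synthesis lay on the same side. All 20 cytosolic aminoacyl-tRNA synthetases, which charge tRNAs with amino acids, were above 0, against 52.1% of all genes. Of the 20, 16 had an interval wholly above 0, against 16.9% of all genes. The median of 0.14 was 0.15 with the length trend subtracted. IARS had 6618 reads in Claret and 5175 in Violet, beside 3242 in Bulk and 5484 in eGFP (0.25, 0.19 to 0.30), and GARS had 2375, 8667, 7223 and 6785 (0.24, 0.20 to 0.29). QARS, at the low end, had 3166, 3214, 2960 and 2885 (0.05, -0.03 to 0.12). Claret was highest for IARS and GARS, and Bulk for QARS. Translation initiation and elongation factors were above 0 in 32 of 40, with a median of 0.12 (0.11 with the trend subtracted), and the pair past the fold in this list, EIF3CL and EIF3C, are near-identical copies described below. ATF4 stress targets had 25 of 34 above 0 and a median of 0.12 (0.08), and heat-shock genes 19 of 23 and 0.11 (0.08). HSPA8, the constitutive cytosolic chaperone, was at 0.29 (0.26 to 0.32) and HSPA1A, its stress-inducible relative, at -0.46 (-0.92 to -0.03) on 77 reads in Claret and 99 in Violet. Of the 23 heat-shock genes, 6 count as near-identical copies by the rule given below, and the median without them was 0.09. The part of shared reads in the HSPA1A count was not tested.

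The proteasome, which degrades tagged proteins, had 33 of 34 subunits above 0 and a median of 0.13 (0.10 with the trend subtracted), with PSMC5 the highest (2590, 1805, 1465 and 1325 reads, 0.34, 0.23 to 0.44). Bulk was highest and Claret came next. Nuclear genes of oxidative phosphorylation were above 0 in 63 of 74, with a median of 0.14 (0.10), led by NDUFS7 at 0.46 (0.24 to 0.68). Mitochondrial ribosomal proteins were above 0 in 61 of 73, with a median of 0.15 (0.07). MRPS28, which shares sequence with the overlapping gene AC036214.3 and counts as a copy, was past the fold on low counts (63, 121, 79 and 61 reads, 0.86, 0.42 to 1.35), and MRPL23 was the lowest, at -0.50 (-0.74 to -0.28). The 13 protein genes of the mitochondrial genome are short, and their median of 0.11 with 12 above 0 became -0.01 with 4 above 0 once the length trend was subtracted. MT-CO1 was at 0.17 (0.16 to 0.18) and MT-ND4 at 0.04 (0.03 to 0.05). Of the 13, 8 are near-identical copies by the rule given below, MT-CO1 among them, and the median without copies was 0.0245. The sign of the median depended on the length trend, and its size on the copies.

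**Figure D4:**
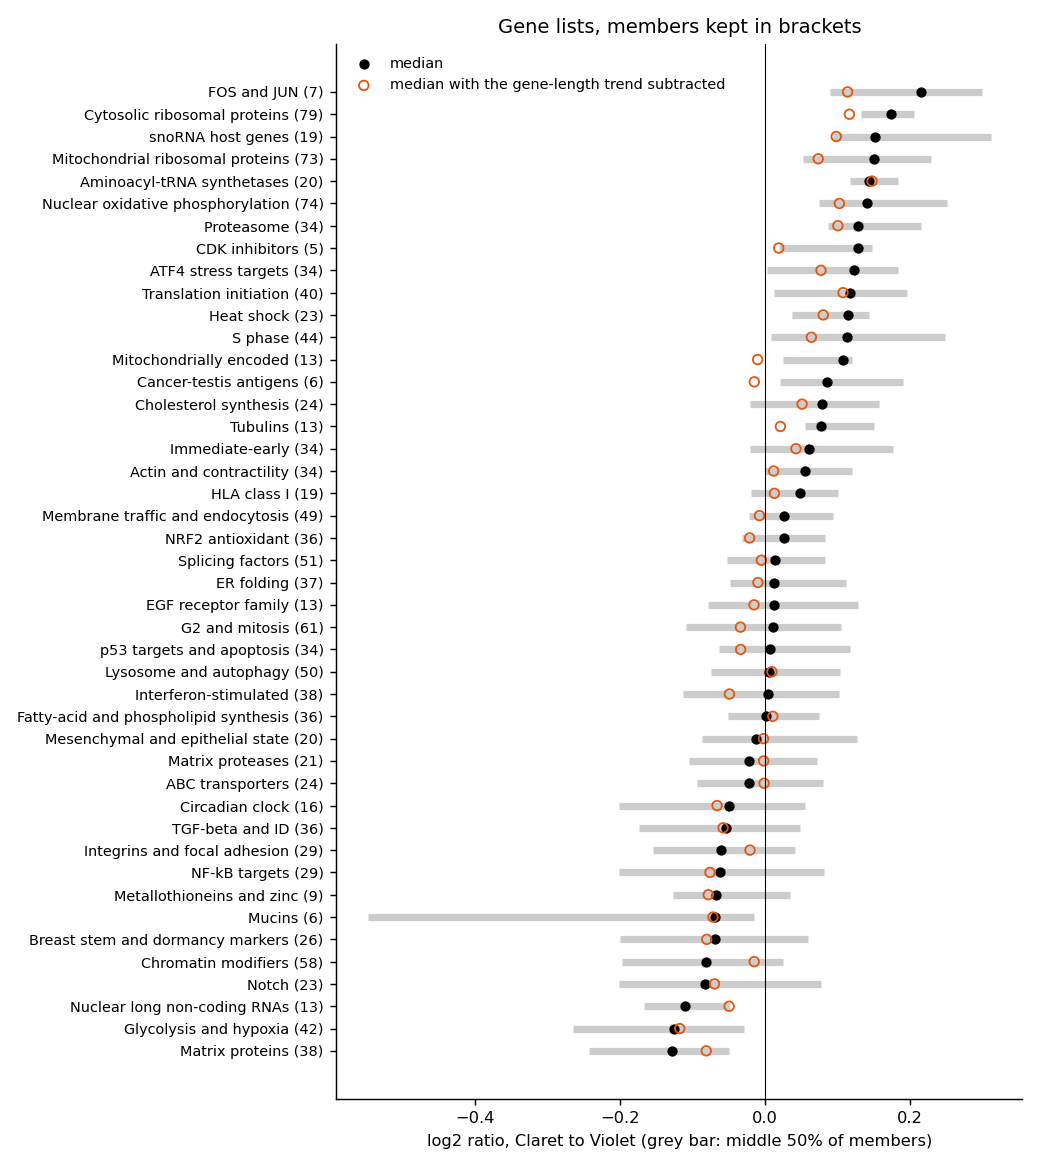
Median log2 ratio of Claret to Violet (x axis) for each gene list with at least 5 kept members (y axis, number of members in brackets). Black points are medians, grey bars span the middle 50% of members, and open orange circles are medians with the length trend subtracted. Ribosomal proteins, tRNA synthetases and proteasome stay to the right and glycolysis and hypoxia stay to the left under both, while the mitochondrially encoded genes move from 0.11 to -0.01.

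Of the cell-cycle genes, the readout nearest to division, S-phase genes leaned slightly to Claret and G2 and mitosis genes to neither side. Of 44 S-phase genes 34 were above 0, with a median of 0.11 (0.06 with the trend subtracted), 11 of the 44 had an interval wholly above 0 (16.9% of all genes had) and none wholly below (15% of all genes), and none was past the fold. E2F1, a transcription factor of S-phase entry, had 383 reads in Claret and 258 in Violet, beside 1478 in Bulk and 232 in eGFP (0.46, 0.23 to 0.69). RRM1, of ribonucleotide reductase, had 3398, 1023, 731 and 793 (0.26, 0.12 to 0.39). Bulk was far above the 3 sorted libraries in both, and Claret was the highest of those 3. G2 and mitosis genes were above 0 in 31 of 61, with a median of 0.01 (-0.03). Their 4 intervals wholly above and 7 wholly below 0 were both smaller shares than the 16.9% and 15% of all genes. MKI67, the proliferation marker Ki-67, had 6778, 995, 689 and 915 reads (0.01, -0.12 to 0.14), and TOP2A, topoisomerase II alpha, had 14220, 3399, 2487 and 3330 (-0.08, -0.15 to -0.01). The CDK inhibitor CDKN1A (p21) had 1375, 3085, 3233 and 2395 reads (0.26, 0.18 to 0.33). CDKN1B was at -0.01 (-0.13 to 0.10), CDKN1C at 0.15 (-0.07 to 0.36), CDKN2C at 0.02 (-0.19 to 0.23) and CDKN2D at 0.13 (-0.05 to 0.30). Of the 5, 1 (CDKN1A) had an interval clear of 0. Of all genes, 16.9% had one wholly above 0 and 15% wholly below. The median of the 5 was 0.13 (0.02 with the trend subtracted).

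Signalling and inflammatory lists leaned toward Violet or to neither side, where 52.1% of all genes lay above 0. NF-kB targets had 17 of 29 below 0, 12 above it and a median of -0.06 (-0.08 with the trend subtracted), with IL11 past the fold in the other direction. ICAM1, an adhesion molecule, had 618 reads in Claret and 776 in Violet, beside 139 in Bulk and 795 in eGFP (-0.44, -0.59 to -0.28), and CSF1, macrophage colony-stimulating factor, 6005, 7730, 8545 and 8644 (-0.27, -0.31 to -0.23). Notch genes had 16 of 23 below 0 and a median of -0.08 (-0.07), with the targets HES2 at -0.48 (-0.78 to -0.20) and HES1 at -0.22 (-0.37 to -0.06), and the receptors NOTCH1 at -0.16 (-0.26 to -0.06) and NOTCH2 at -0.18 (-0.24 to -0.12). None of the Notch genes was past the fold. Stem and dormancy markers had 16 of 26 below 0 and a median of -0.07 (-0.08), with NDRG1 the member past the fold. Among them NR2F1, an orphan nuclear receptor used as a dormancy marker, had 1699, 1270, 1351 and 1533 reads (-0.38, -0.49 to -0.27), and AXL, a receptor tyrosine kinase, 11681, 12954, 10976 and 9826 (0.29, 0.25 to 0.33). CD44 was at 0.13 (0.08 to 0.19). TGF-beta and ID genes had 23 of 36 below 0, median -0.05 (-0.06).

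Lists of membrane traffic, lysosomes and efflux pumps had medians near 0. Membrane traffic and endocytosis had 31 of 49 members above 0 and a median of 0.03 (-0.01 with the trend subtracted), lysosome and autophagy 25 of 50 and 0.01 (0.01), and ABC transporters 12 of 24 and -0.02 (-0.00). None of these 3 lists had a member past the fold. Among the abundant members, CAVIN1, of caveolae, was at 0.10 (0.06 to 0.14), CLTC, the clathrin heavy chain, at -0.03 (-0.07 to 0.01), PSAP, a lysosomal protein, at -0.01 (-0.03 to 0.01), and ABCC3, an efflux pump, at -0.14 (-0.19 to -0.09). Interferon-stimulated genes (19 of 38 above 0, median 0.00), genes of endoplasmic-reticulum folding (20 of 37, 0.01), fatty-acid and phospholipid synthesis (18 of 36, 0.00), the EGF receptor family (7 of 13, 0.01), mesenchymal and epithelial state genes (10 of 20, -0.01) and p53 targets and apoptosis genes (18 of 34, 0.01) were evenly split too, and with the trend subtracted their medians ran from -0.05 to 0.01. HLA class I genes (13 of 19, 0.05) and NRF2 targets (22 of 36, 0.03) leaned slightly to Claret, and with the trend subtracted the medians were 0.01 and -0.02. BCL2A1 in the p53 and apoptosis list and CLDN3 in the mesenchymal and epithelial list were the members past the fold.

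In 4 further lists the lean to Claret was smaller with the length trend subtracted. Cholesterol synthesis had 17 of 24 above 0 and a median of 0.08 (0.05 with the trend subtracted), actin and contractility 26 of 34 and 0.06 (0.01), tubulins 11 of 13 and 0.08 (0.02), and cancer-testis antigens 5 of 6 and 0.09 (-0.01). Of those 6 antigen genes 4 are near-identical copies, and the median without them was 0.25. Chromatin modifiers showed the same on the other side. They are long (median 10301 bases), 41 of 58 lay below 0, the median was -0.08, and it became -0.01 with the trend subtracted. KMT2D, a histone methyltransferase, had 2603 reads in Claret and 2982 in Violet, beside 4002 in Bulk and 2639 in eGFP (-0.30, -0.38 to -0.23, and -0.18 with the trend subtracted). Metallothionein and zinc genes had 3 of 9 above 0 and a median of -0.07 (-0.08), and circadian clock genes 7 of 16 and -0.05 (-0.07). Without copies the clock median was -0.012, the interferon median -0.038 and the tubulin median 0.11.

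Non-coding RNAs divided by kind. Host genes of small nucleolar RNAs, which are spliced, polyadenylated and coupled to translation, were above 0 in 16 of 19, with a median of 0.15 (0.10 with the trend subtracted). GAS5 had 9945 reads in Claret and 7695 in Violet, beside 2826 in Bulk and 9410 in eGFP (0.26, 0.22 to 0.30), and SNHG15 had 611, 808, 579 and 573 (0.39, 0.23 to 0.54). GAS5 was about as high in eGFP as in Claret, SNHG15 was highest in Claret, and none of the list was past the fold. Nuclear long non-coding RNAs were above 0 in 3 of 13, with a median of -0.11 (-0.05). NEAT1, the scaffold of paraspeckles (chromosome 11, 65422774 to 65445540), had 5458, 7509, 7970 and 10748 reads (-0.63, -0.67 to -0.58, and -0.49 with the trend subtracted). KCNQ1OT1, an imprinted antisense transcript, had 172, 118, 112 and 172 (-0.64, -1.003 to -0.31, and -0.40). MALAT1, of nuclear speckles, had 2027, 3291, 3421 and 3838 (-0.33, -0.40 to -0.26). Violet was highest for NEAT1 and MALAT1 and level with Bulk for KCNQ1OT1, and both NEAT1 and KCNQ1OT1 fell short of 1.5-fold with the trend subtracted. The mitochondrial 12S ribosomal RNA, MT-RNR1, was at 0.32 (0.28 to 0.35, and 0.20 with the trend subtracted), and AC004585.1 at 0.40 (0.20 to 0.61). AC000123.3, AL365356.4 and PURPL were lower and past the fold, at -0.83 (-1.20 to -0.49), -0.81 (-1.27 to -0.39) and -0.63 (-0.92 to -0.36).

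Near-identical gene copies held the most extreme ratios. A gene was counted as a copy when at least 25% of the 31-base words of its GENCODE 29 transcripts occur in other genes. The name is thus also given to genes whose partners overlap them at the same locus. Copies were 1273 of the 11493 genes (11.1%) but 41 of the 106 past the fold (38.7%), and 8 of the 15 past 2-fold. Put the other way, 3.22% of copies and 0.636% of other genes were past the fold. Of the 41, 17 are annotated as pseudogenes, 12 overlap their partner at the same locus, 24 have partners elsewhere, and 5 have no single partner that holds 25% of their words. Reads were summed over each gene and its partners. Of the 24 with partners elsewhere, 18 were then no longer past the fold and 6 still were, and of the 12 at the same locus 7 still were. A sum is dominated by the most abundant partner, so it can hide a true difference in a minor copy.

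EIF3C and EIF3CL, which encode the same subunit of translation initiation factor 3 on chromosome 16, ran in opposite directions. EIF3C (28688558 to 28735730) had 224 reads in Claret and 624 in Violet, beside 1026 in Bulk and 686 in eGFP, a log2 ratio of -1.58 (-1.81 to -1.36). EIF3CL (28379579 to 28403879) had 63, 591, 30 and 43 reads, 3.61 (3.22 to 4.15). Claret was the low library for EIF3C and the high one for EIF3CL. Their sum was 1089, 815, 716 and 667 reads, 0.18 (0.03 to 0.33), not past the fold. Over their aligned coding sequence of 2739 bases there was no differing base, and EIF3CL was 3 bases longer. The stretch around those 3 bases is shown, in capitals, because it is where the 2 coding sequences differ (chr16:28723213-28723302, plus strand, and chr16:28392001-28392093, minus strand).
EIF3C: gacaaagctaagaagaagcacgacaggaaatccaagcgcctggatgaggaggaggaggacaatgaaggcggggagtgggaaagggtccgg
EIF3CL: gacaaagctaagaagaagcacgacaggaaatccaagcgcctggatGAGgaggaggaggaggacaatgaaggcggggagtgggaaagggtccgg
How reads that match both were assigned is not given in the sources used here.

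BOLA2B (chromosome 16, 30192934 to 30194306), a copy of the iron-sulfur protein gene BOLA2, had the largest ratio of all, with 325 reads in Claret and 6 in Violet, beside 24 in Bulk and 2 in eGFP (5.25, 4.51 to 7.11). BOLA2 itself had 1, 0, 1 and 1 reads. Summed over 5 partners there were 29, 326, 10 and 10 reads, 4.67 (4.02 to 5.99), so Claret remained high after summing. The coding sequences of BOLA2 and BOLA2B were identical over 456 of 456 bases, and the first 90 are shown with no base in capitals because none differs (chr16:29454362-29454451 and chr16:30193704-30193793, both minus strand).
BOLA2: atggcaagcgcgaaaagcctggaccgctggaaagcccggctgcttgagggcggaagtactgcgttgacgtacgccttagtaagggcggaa
BOLA2B: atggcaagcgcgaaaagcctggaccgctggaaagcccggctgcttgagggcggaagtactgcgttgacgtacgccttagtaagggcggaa
Reads in this stretch cannot be told apart by sequence.

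RPL29 and 2 of its pseudogenes differed in direction. RPL29P11 (chromosome 3, 37016523 to 37017014) had 28 reads in Claret and 166 in Violet, beside 62 in Bulk and 26 in eGFP, a log2 ratio of -2.59 (-3.31 to -2.09). AL450405.1 (chromosome 6, 117998975 to 117999448) had 1424, 1303, 1273 and 2211 reads, -0.87 (-0.97 to -0.77). Violet was the high library for both, while RPL29 was highest in Claret (0.33). The sum of each with its partners was 0.16 (0.13 to 0.20), on the side of RPL29, which held most of the reads, but below its 0.33 alone. RPL29P11 had 97.1% identical bases over 485 aligned bases of the RPL29 coding sequence and AL450405.1 98.5% over 471. A stretch of 90 bases is shown with the bases that differ from RPL29 in capitals, 1 in RPL29P11 and 5 in AL450405.1 (chr3:51993893-51993982 and chr3:37016652-37016741, minus strand, and chr6:117999221-117999310, plus strand).
RPL29 coding: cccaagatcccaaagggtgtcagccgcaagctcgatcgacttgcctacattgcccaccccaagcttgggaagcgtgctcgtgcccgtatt
RPL29P11: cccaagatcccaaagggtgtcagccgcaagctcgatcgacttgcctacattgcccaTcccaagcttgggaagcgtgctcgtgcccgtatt
AL450405.1: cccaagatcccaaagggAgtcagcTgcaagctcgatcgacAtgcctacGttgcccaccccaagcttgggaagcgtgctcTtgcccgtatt

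The cystatin pair CST1 and CST4, secreted inhibitors of cysteine proteases on chromosome 20, kept its direction. CST1 (23747553 to 23751268) had 1576 reads in Claret and 2396 in Violet, beside 1802 in Bulk and 1356 in eGFP (-0.71, -0.81 to -0.62). CST4 (23685640 to 23689040) had 1374, 1987, 2059 and 3126 (-0.76, -0.84 to -0.68). Violet was the highest library for both, and their sum was at -0.74 (-0.80 to -0.68), still past the fold. Their coding sequences differ at 31 of 423 bases (92.7% identical), more than any other pair compared here. SMN1 had 617, 212, 223 and 86 reads (1.17, 0.82 to 1.57), with Bulk highest and Violet lowest. Its partner SMN2 was at 0.03, and their sum was at 0.68 (0.42 to 0.95), past the fold. MTX1P1, a pseudogene next to MTX1, had 131, 354, 119 and 156 reads (1.06, 0.80 to 1.35), and the sum with MTX1 was at 0.60 (0.43 to 0.78), also past the fold. NOMO3 (0.85), GTF2IP1 (0.73) and SPCS2P4 (0.81), higher in Claret, came to 0.25, 0.09 and 0.21 when summed with their partners. AP001000.1, lower at -1.26, came to 0.03 with DNAJB6, AL669831.1, lower at -1.04, to -0.20, and SNED1, lower at -0.74, to -0.41 with the overlapping MTERF4. KRT87P, higher at 1.00 (0.59 to 1.46), had no partner above the limit but overlaps KRT7 and KRT86, which were at 0.24 and 0.31.

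**Figure D5:**
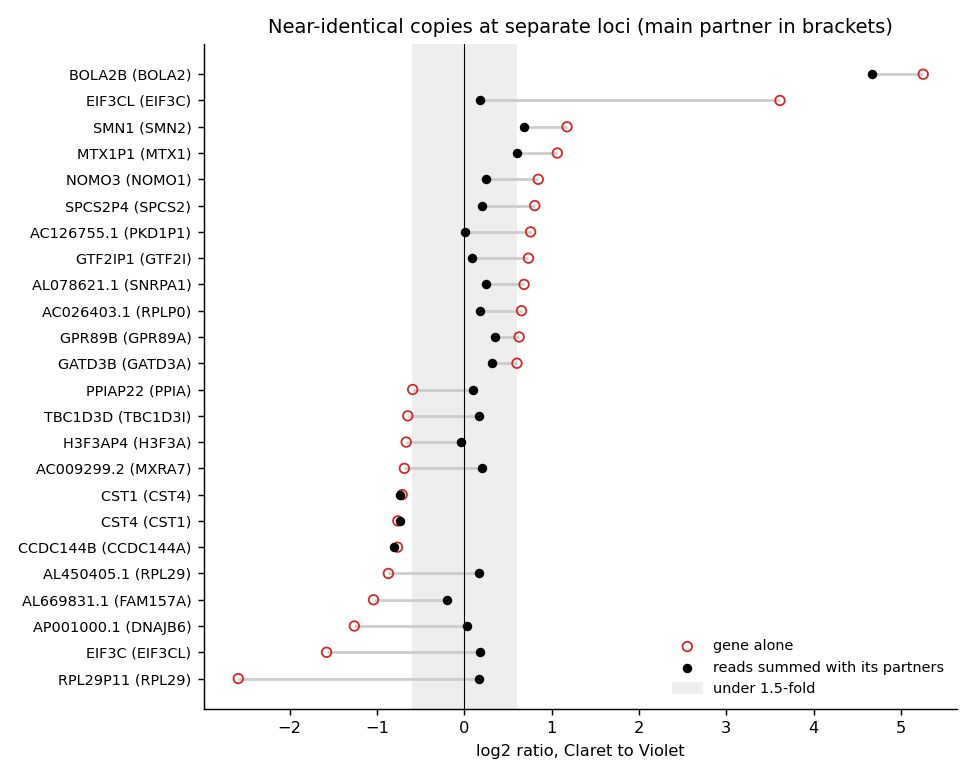
Log2 ratio of Claret to Violet (x axis) for the 24 genes past the fold with near-identical partners at other loci (y axis, main partner in brackets). Open red circles give the gene alone, black points the reads summed over the gene and its partners, and the grey band marks less than 1.5-fold. Of the 24 summed points 18 lie in the band, and BOLA2B at 4.67 stays farthest outside it.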

How the data were processed

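The deposited count table holds, per the file headers, whole-number counts of reads per gene, which are not normalized. FPKM values deposited by the authors entered 1 alternative, as log2(FPKM + 1). HISAT2 2.0.5 and featureCounts 1.5.0-p3 are named in the submitters' processing notes. The role and settings of each, the strand setting and the handling of multi-mapping reads are not given in the sources used here. All 58735 genes have the start and end of GENCODE 29 (GRCh38).

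Counts were scaled with TMM factors over the 4 libraries (genes of at least 1 CPM) by edgeR 4.0.16 (R 4.3.3), and 2 was the prior count of log2 ratios. The 95% intervals were computed from the read ratio by the exact Clopper-Pearson method and, like the floors, cover counting error only. With 1 library a group no test across samples was possible. The length trend was a lowess curve with a span of 30% (statsmodels 0.14.6). Alternatives were library-size and DESeq2 1.42.0 scaling, TMM over 2 libraries, other prior counts, filters and folds, removal or summing of copies, a GC correction and groups from the treatment field. The script was tested on simulated data.

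The genes, the 45 lists and the tests were chosen with earlier results of these data known. Named by rule were the 12 protein-coding genes each way with the interval farthest from equality, 8 copies and 4 non-coding genes each way, list members past 1.5-fold or else the 2 most abundant, the FOS and JUN genes, MKI67, TOP2A and CDK inhibitors. Others were chosen after their values were seen.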

Additional observations from a re-analysis of the deposited data

How the results depend on the processing

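Of the 45 lists, 11 were followed through all alternatives. Among settings that keep the titles, the 36 higher genes, 70 lower genes and SD of 0.197 became 163, 336 and 0.29 at 1 CPM, 4, 18 and 0.152 at 20 CPM, 336, 648 and 0.601 with no filter, and 16, 23 and 0.156 on log2(FPKM + 1), a scale that understates changes of weakly expressed genes. Under a fold of 2 the counts were 4 and 11. Without gene copies 17 genes were higher and the SD was 0.178, and over protein-coding genes the SD was 0.19. With the gene-length trend subtracted, chosen after seeing the data, the SD was 0.189, the FOS and JUN median 0.11 and the ribosomal median 0.12. Subtracting it without copies gave 14 higher genes, an SD of 0.169 and medians of 0.11 and 0.13. All 11 lists kept their sign with DESeq2 size factors. With library-size scaling and with the length trend subtracted 10 of 11 did, the exception being G2 and mitosis, whose median was near 0. At 1 CPM, at 20 CPM, with no filter, and with the trend subtracted without copies, 10 of 11 also kept their sign. With groups from the treatment field 6 of 11 did. Groups from the treatment field, which compare the libraries titled Bulk and H2B-eGFP, gave 2240 higher, 1871 lower, an SD of 0.798, and medians of 2.56 (S phase), 2.50 (G2 and mitosis), -0.67 (FOS and JUN), -0.61 (tRNA synthetases), -0.37 (cytosolic ribosomal proteins), 0.37 (mitochondrial ribosomal proteins), 0.31 (glycolysis and hypoxia), -0.53 (matrix), 0.66 (proteasome) and 0.39 (chromatin modifiers). They reversed 14 named genes: IL11 (-0.998), CYP1B1 (-2.60), FOSB (-0.88), ARHGEF16 (-1.34), MUC5B (0.16), SNRPG (1.80), CEMIP (0.0762), ANGPTL4 (0.21), MUC5AC (2.12), SPCS2P4 (-0.63), EIF3C (0.59), AL450405.1 (0.17), CST1 (0.42) and KCNQ1OT1 (0.62). The cause of these changes was not tested. No paired analysis was possible because each group has 1 library. Depth limits genes under 10 CPM, where counting alone gives a spread of 0.193 in the log2 ratio.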

Other observations

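A few genes of mucus and epithelium lower in Claret are given as values only, since they were picked after their values were seen and stand for no wider group. Other epithelial genes lay the other way: KRT19 was at 0.25 and EPCAM at 0.63 (48 reads in Claret and 28 in Violet), and the summed luminal markers were higher in Claret (711.4 against 647.9 CPM). TFF3, a trefoil peptide secreted with mucins, had 98 reads in Claret and 142 in Violet, beside 73 in Bulk and 68 in eGFP, a log2 ratio of -0.63 (95% interval -1.03 to -0.26). In the order Bulk, Claret, eGFP, Violet, FCGBP, a mucus protein, had 49, 97, 141 and 150 reads, -0.73 (-1.12 to -0.36), and AQP3, a water and glycerol channel, had 486, 550, 609 and 780, -0.61 (-0.77 to -0.45). CDHR5, a cadherin-related protein of microvilli, had 30, 66, 98 and 105 reads, -0.76 (-1.25 to -0.32), and RAB17, a GTPase of epithelial transport, had 181, 123, 101 and 210, -0.87 (-1.21 to -0.55). Violet was the highest library for all 5, while the place of eGFP varied.

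Below the 5 CPM limit, 16447 further genes had at least 1 read in Claret or Violet. Of these, 217 were higher and 416 lower in Claret by at least 2-fold with an interval past equality, and 208 of them were near-identical copies. The share of copies among all 16447 genes was not taken, so the 208 cannot be read as an excess. XAGE1B, a cancer-testis antigen gene with near-identical copies, had 122 reads in Claret and 9 in Violet, beside 93 in Bulk and 493 in eGFP, a log2 ratio of 3.39. LGR6, a stem-cell receptor just above the limit, had 7, 142, 88 and 86 reads (0.60, 0.22 to 1.02), and PAPPA2, a protease of IGF-binding proteins, had 10, 223, 218 and 136 (0.60, 0.29 to 0.92). For LGR6 and PAPPA2 Bulk was far below the 3 sorted libraries.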
